A study of Homo sapiens with 9 samples.

Results

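The 9 genes described here are the receptors, coreceptors and GLI effectors through which cells read Hedgehog ligands: PTCH1, SMO, HHIP, BOC, GAS1, SUFU, GLI1, GLI2 and GLI3. They were chosen by gene symbol, and each symbol matched 1 of the 34961 genes in the table. Expression was measured by RNA sequencing in WA09 (also called H9), an established line of human embryonic stem cells, here with an EGFP reporter knocked in at TPH2, the gene of the neuronal tryptophan hydroxylase. All libraries carry this knock-in and the label of serotonin neuron induction. There were 3 libraries for each of 3 days: Day0 (embryonic stem cells), Day21 (labelled neural progenitor cells) and Day42 (labelled TPH2-positive serotonin neurons). Libraries are labelled as biological replicates 1 to 3, with no word on separate differentiations or clones, so p-values measure the spread among these libraries only, and that spread may be technical. The labels name neither the agents of the differentiation nor any sort of the cells.

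Hedgehog ligands bind PTCH1, a membrane protein that otherwise holds SMO, the signal transducer, inactive. BOC and GAS1 are coreceptors that help the ligand to bind, and HHIP is a membrane protein that binds the ligand and takes it out of action. Active SMO at the primary cilium releases the GLI transcription factors from SUFU: GLI2 is the main activator, GLI3 is cut to a repressor when no ligand is present, and GLI1 is an activator that is itself a target. PTCH1, HHIP and GLI1 are widely used as readouts of the pathway, and in the ventral neural tube, where hindbrain serotonin neurons arise, the graded ligand SHH sets which progenitors form.

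Across the 3 days the genes showed 3 features, and some genes shared more than 1 of them. PTCH1, HHIP, BOC and SUFU had their highest levels on Day21, and scaled by TMM (a normalisation of library totals) every Day21 library lay above every Day0 library. On the FPKM scale this held for the first 3, and SUFU overlapped. Mean CPM was highest on Day21 for SMO, GLI1, GLI3 and GAS1 as well, with libraries that overlapped those of Day0. GLI1, GLI2, GLI3, SUFU and GAS1 were at or near 0 in all Day42 libraries, and PTCH1 was lower there than on Day21. SMO, HHIP and BOC kept substantial counts in only 1 Day42 library each. None of the higher Day21 levels passed the test over all 9 libraries, with 1.32% of all tested genes called higher there. On Day42, 6 of the 9 genes were called lower than on Day21, against 19.7% of all tested genes. All of these 6 except PTCH1 passed the filter on low counts through Day0 and Day21 libraries only.

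Depth was even, with 58526466 to 69658328 counts per library, but the Day42 libraries differed from the others. Between 22198 and 24359 genes had a count above 0 in the Day0 libraries and 24581 to 24741 in the Day21 libraries, while Day42 replicates 1, 2 and 3 had 16077, 17101 and 10797. The biological coefficient of variation that edgeR estimated was 0.554 for Day0, 0.420 for Day21 and 1.86 for Day42. Of 20156 genes kept by the count filter and tested, 9 were these Hedgehog genes. GAS1 passed the filter through 2 libraries each of Day0 and Day21, and the other 8 through all 3 libraries of both days. GLI1, GLI2, GLI3, SUFU and GAS1 had no Day42 library over the filter, so they were tested only through days on which they were higher. Their tests on Day42 describe the data and support no direction of the 9 genes. Levels are given as raw counts, as CPM (counts relative to a library total scaled by TMM factors) and, between genes, as FPKM (fragments scaled to gene length and library total), with mean ± SD over the libraries of each day (n = 3). Changes are log2 fold changes ± SE from edgeR's quasi-likelihood test, called where the p adjusted by Benjamini and Hochberg was under 0.05 and the change at least 1 log2 unit. Since counts pile up at multiples of 4, a count of 0 was taken to allow up to 12 counts in a library, which averaged 0.227 CPM for Day0, 0.203 for Day21 and 0.146 for Day42, and this limit covers counting error only. In bulk RNA, fewer cells of a type and less RNA per cell cannot be told apart.

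PTCH1 (ENSG00000185920) lies on the minus strand of chromosome 9, at chr9:95442980-95517057 on GRCh38. RefSeq (GRCh38.p14) gave 5 promoter windows for it, each of 250 bases before and 50 after a start site. The binding motif of the GLI factors, GACCACCCA, was searched on both strands in these windows. The upstream part of the only window with a match is printed because PTCH1 is the receptor gene that GLI factors are known to switch on, with the upstream part of the SMO window beside it as the window of the partner gene that held none. Capitals mark the motif, which reads on the opposite strand of the gene, at chr9:95509430-95509438, and begins 172 bases before the start site. The PTCH1 stretch is chr9:95509267-95509516 on the minus strand and the SMO stretch chr7:129188383-129188632 on the plus strand. No GENCODE 29 exon overlaps either. The bases just after either start site were found in no GENCODE 29 transcript of its gene, and the PTCH1 start site lies inside the span of the gene.
PTCH1: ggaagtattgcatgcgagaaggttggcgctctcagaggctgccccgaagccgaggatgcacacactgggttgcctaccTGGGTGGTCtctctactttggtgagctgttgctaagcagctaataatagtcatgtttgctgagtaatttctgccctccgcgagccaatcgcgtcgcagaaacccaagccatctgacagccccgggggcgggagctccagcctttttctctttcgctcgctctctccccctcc
SMO: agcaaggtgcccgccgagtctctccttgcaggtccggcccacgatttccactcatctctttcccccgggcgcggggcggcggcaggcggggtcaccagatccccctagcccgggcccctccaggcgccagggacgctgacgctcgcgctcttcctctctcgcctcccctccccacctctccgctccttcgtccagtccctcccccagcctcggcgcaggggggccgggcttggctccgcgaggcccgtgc
The motif occurred in 83 of 35116 RefSeq promoter windows (0.236%), and the looser GACCNCCCA, which includes it, in 384 (1.09%). RefSeq windows were matched for 7 of the 9 genes, 13 in all, and the other 12 windows held neither form. GLI1 and GLI3 had no window in the table. A match is a description of the letters in the window and says nothing of binding in these cells.

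PTCH1 had 69, 71 and 95 counts in the Day0 libraries, 1491, 548 and 509 in the Day21 libraries, and 56, 85 and 8 in the Day42 libraries. All Day21 libraries were several times above every Day0 and Day42 library, with replicate 1 standing above the other two Day21 libraries, and the Day42 libraries lay under those of Day0 in TMM-scaled CPM. In FPKM they overlapped, with 0.0679 in Day42 replicate 2, against 0.0503 to 0.0681 in the Day0 libraries. PTCH1 averaged 1.46 ± 0.149 CPM at Day0, 13.6 ± 6.96 CPM at Day21 and 0.605 ± 0.464 CPM at Day42. On Day21 it was 3.22 ± 0.96 log2 units above Day0, which did not pass in the fit to all 9 libraries (edgeR adjusted p = 0.111, unadjusted p = 0.00931). The difference had nearly the same size and passed when only the 6 libraries of these 2 days were fitted (3.21 ± 0.41, edgeR adjusted p = 0.00143), when Day42 replicate 3 was left out (3.21, edgeR adjusted p = 0.00674, where 7.39% of tested genes were called higher) and with DESeq2 (3.20, DESeq2 adjusted p = 0.000633). It passed in 4 of 15 alternatives in all, and without any 1 Day0 or Day21 library it did not (edgeR adjusted p from 0.214 to 0.344). On Day42 PTCH1 fell by 4.49 ± 1.02 log2 units relative to Day21 (edgeR adjusted p = 0.0126). Relative to Day0 its log2 difference on Day42 was -1.27 ± 0.90, which did not pass (edgeR adjusted p = 0.336).

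**Figure D1:**
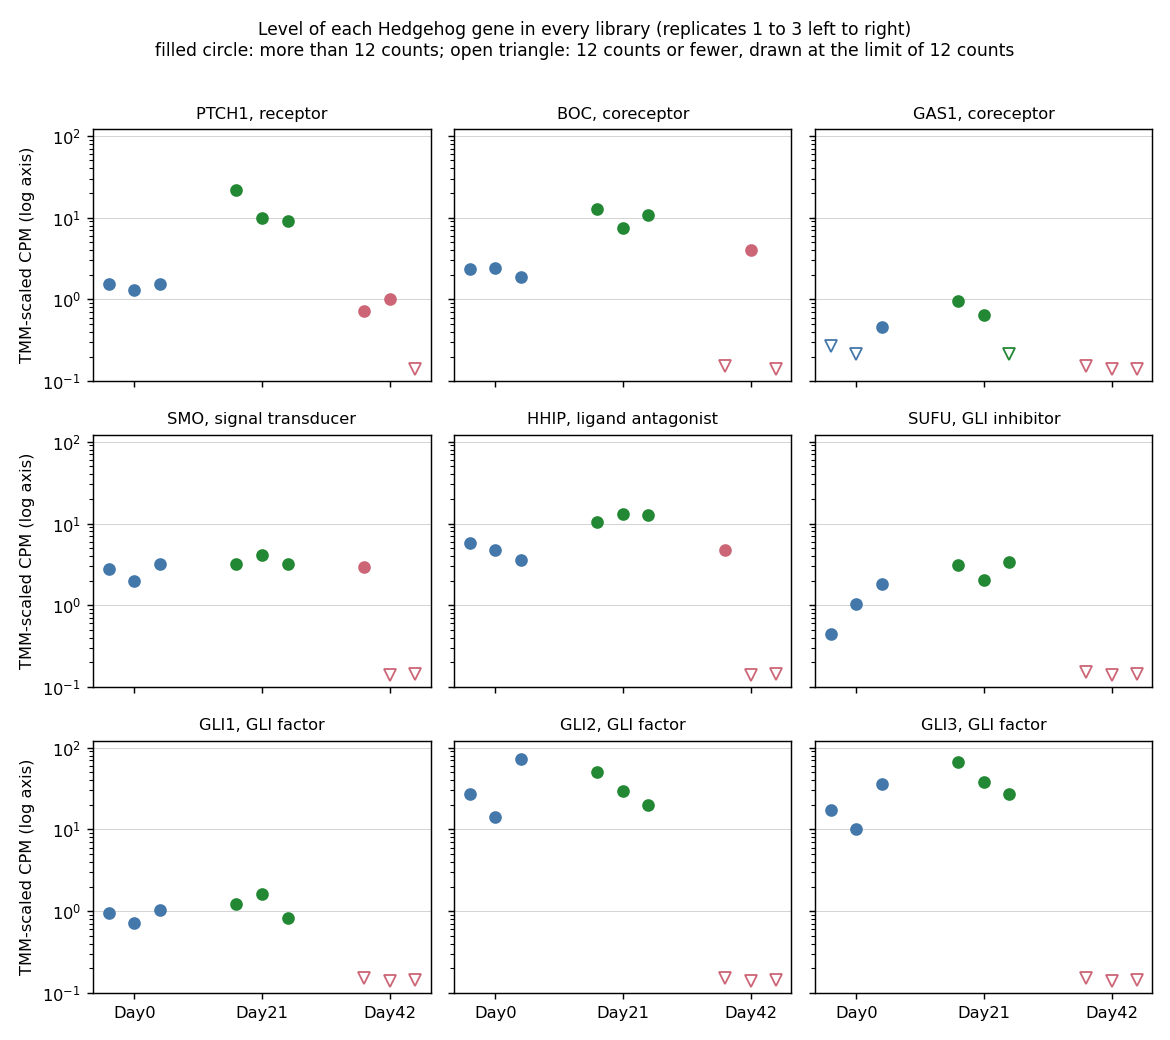
Level of each of the 9 genes in every library, in TMM-scaled CPM on a log axis, with replicates 1 to 3 of Day0, Day21 and Day42 from left to right; circles are libraries with more than 12 counts and open triangles mark the limit of 12 counts for libraries at or under it. PTCH1, HHIP, BOC and SUFU sit highest on Day21, and GLI1, GLI2, GLI3, SUFU and GAS1 are at or under the limit in all 3 Day42 libraries.

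HHIP (ENSG00000164161, chr4:144646156-144745271) was the steadiest of the genes on Day21. It had 260, 260 and 218 counts in the Day0 libraries, 728, 716 and 695 in the Day21 libraries, and 370, 6 and 8 in the Day42 libraries. All Day21 libraries lay above all others, and on Day42 only replicate 1 held more than 12 counts. HHIP stood at 0.720 ± 0.00611 FPKM on Day21 and 0.267 ± 0.0399 FPKM on Day0. On Day21 it was 1.36 ± 1.41 log2 units above Day0 in the fit to all libraries (edgeR adjusted p = 0.806). With the 2 days alone the difference was 1.35 ± 0.28 and passed (edgeR adjusted p = 0.0103), as it did in 2 of 14 alternatives. The log2 difference of Day42 from Day21 was -2.88 ± 1.48 and not called (edgeR adjusted p = 0.202), and that from Day0 was -1.52 ± 1.41 (edgeR adjusted p = 0.477). Leaving out Day42 replicate 1 turned both into calls, at -7.09 against Day21 (edgeR adjusted p = 0.00198) and -5.74 against Day0 (edgeR adjusted p = 0.00208). The Day42 counts then left, 6 and 8, were within the limit of 12 counts. The size of these changes is therefore unmeasured, and the calls followed from which library was removed.

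The coreceptor BOC (ENSG00000144857, chr3:113211003-113287459) had 106, 132 and 115 counts in the Day0 libraries, 879, 412 and 592 in the Day21 libraries, and 0, 340 and 0 in the Day42 libraries. Its Day0 and Day21 libraries did not overlap, and Day42 replicate 2 held every Day42 count. BOC was 2.22 ± 2.10 log2 units higher on Day21 than on Day0 over all libraries (edgeR adjusted p = 0.768) and 2.21 ± 0.31 higher with the 2 days alone, which passed (edgeR adjusted p = 0.00212), as in 2 of 15 alternatives. The log2 difference of Day42 was -2.95 ± 2.16 from Day21 (edgeR adjusted p = 0.388) and -0.73 ± 2.02 from Day0 (edgeR adjusted p = 0.837), neither of them called. Without Day42 replicate 2 both passed, at -12.32 (edgeR adjusted p = 0.00145) and -10.11 (edgeR adjusted p = 0.00137). Only counts of 0 were then left on Day42, so these sizes are unmeasured and the calls followed from which library was removed.

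GAS1 (ENSG00000180447, chr9:86944362-86947506), the other coreceptor and the only one of the 9 whose span overlaps no other gene model, had the lowest counts on Day0 and Day21. They were 12, 4 and 28 in the Day0 libraries, 66, 35 and 5 in the Day21 libraries, and 0 in all 3 Day42 libraries. The Day0 and Day21 libraries overlapped, and 3 of these 6 values were at or under the limit of 12 counts. GAS1 was 1.07 ± 1.15 log2 units higher on Day21 than on Day0 (edgeR adjusted p = 0.826). Its Day42 level was at least 3.86-fold lower than that of Day21 (edgeR adjusted p = 0.0120) and at least 1.82-fold lower than that of Day0 (edgeR adjusted p = 0.0146). The bounds were 2.50 without Day21 replicate 1 and 1.17 without Day0 replicate 3. Both calls were lost with sample quality weights in limma's voom (adjusted p = 0.210 and 0.255).

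SMO (ENSG00000128602, chr7:129188633-129213545), the membrane protein that PTCH1 holds in check, had 125, 109 and 197 counts in the Day0 libraries, 218, 227 and 175 in the Day21 libraries, and 230, 0 and 0 in the Day42 libraries. The libraries of Day0 and Day21 overlapped, and Day42 replicate 1 alone held SMO, at a count like those of Day21. In FPKM that library (0.694) lay above the Day21 libraries (0.456 to 0.578), while in TMM-scaled CPM it lay below them. SMO was 0.39 ± 2.00 log2 units higher on Day21 than on Day0 (edgeR adjusted p = 0.994). The log2 difference of Day42 was -1.83 ± 2.06 from Day21 (edgeR adjusted p = 0.603) and -1.44 ± 2.04 from Day0 (edgeR adjusted p = 0.658). Without Day42 replicate 1 both passed, at -10.77 (edgeR adjusted p = 0.00232) and -10.40 (edgeR adjusted p = 0.00192). As for BOC, only counts of 0 were then left on Day42, so neither size is measured and both calls followed from the removal. The ratio of the receptor to the transducer, PTCH1 to SMO in FPKM, was 1.89, 0.660 and 0.801 in the Day21 libraries, against 0.150, 0.177 and 0.132 in the Day0 libraries. These ratios did not overlap between the days. Neither did the FPKM of PTCH1 alone, as for 25.0% of tested genes with Day21 higher, and the ratio is given without a test. On Day42 the ratio could be formed in replicate 1 only, at 0.0671.

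SUFU (ENSG00000107882, chr10:102503972-102633535), the cytoplasmic inhibitor that holds GLI proteins, had 20, 57 and 113 counts in the Day0 libraries, 215, 113 and 189 in the Day21 libraries, and 8, 4 and 6 in the Day42 libraries. In TMM-scaled CPM every Day21 library was above every Day0 library, while in FPKM Day21 replicate 2 (0.197) was under Day0 replicate 3 (0.202). Every Day42 library was under the limit. SUFU averaged 1.11 ± 0.701 CPM at Day0, 2.87 ± 0.711 CPM at Day21 and 0.0736 ± 0.0277 CPM at Day42. The Day21 level was 1.37 ± 0.83 log2 units above Day0 and not called (edgeR adjusted p = 0.514). The Day42 level of SUFU was at least 19.7-fold lower than that of Day21 (fitted log2 change -5.25 ± 0.99, edgeR adjusted p = 0.00571) and at least 7.60-fold lower than that of Day0 (-3.88 ± 0.92, edgeR adjusted p = 0.0130). The call against Day0 was lost with the 2 days alone (edgeR adjusted p = 0.0513) and with voom (adjusted p = 0.192), and that against Day21 with voom (adjusted p = 0.0529).

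Of the 3 GLI genes, GLI2 (ENSG00000074047, chr2:120735623-120991380) and GLI3 (ENSG00000106571, chr7:41960949-42237209) were abundant and GLI1 (ENSG00000111087, chr12:57459785-57472268) was not. GLI1 had 42, 40 and 64 counts in the Day0 libraries, 84, 88 and 45 in the Day21 libraries, and 0 in each Day42 library. GLI2 had 1203, 775 and 4464 counts in the Day0 libraries, 3449, 1624 and 1091 in the Day21 libraries, and 0 in each Day42 library. GLI3 had 766, 550 and 2200 counts in the Day0 libraries, 4644, 2087 and 1504 in the Day21 libraries, and 0, 0 and 4 in the Day42 libraries. For each of the 3 genes the Day0 and Day21 libraries overlapped, and the Day42 libraries lay apart from both. Day0 replicate 3 was the highest Day0 library for all 3.

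None of the GLI genes passed the test between Day21 and Day0. The log2 difference was 0.42 ± 0.80 for GLI1 (edgeR adjusted p = 0.954), -0.19 ± 0.74 for GLI2 (edgeR adjusted p = 0.990) and 1.07 ± 1.01 for GLI3 (edgeR adjusted p = 0.764). The sign for GLI2 depended on single libraries, since without Day0 replicate 3 the difference was 0.69 and without Day21 replicate 3 it was 0.07. On Day42 all 3 genes fell. GLI1 was at least 8.32-fold lower than on Day21 (edgeR adjusted p = 0.00302) and at least 6.19-fold lower than on Day0 (edgeR adjusted p = 0.00252). GLI2 was at least 227-fold lower than on Day21 (edgeR adjusted p = 0.00132) and at least 260-fold lower than on Day0 (edgeR adjusted p = 0.000900). GLI3 was at least 303-fold lower than on Day21 (edgeR adjusted p = 0.00212) and at least 144-fold lower than on Day0 (edgeR adjusted p = 0.00201). Without Day0 replicate 3 the bounds relative to Day0 were 141-fold for GLI2 and 93.0-fold for GLI3. Every one of the 9 fits that left out a library kept these 6 calls, and voom lost that of GLI2 relative to Day21 (adjusted p = 0.0514).

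Neither GLI2 nor GLI3 passed the test between these days, and the balance of GLI3 to GLI2 was higher in every Day21 library than in any Day0 library. In FPKM the ratio was 0.937, 0.895 and 0.959 in the Day21 libraries, against 0.442, 0.493 and 0.343 in the Day0 libraries. The spread within a day was narrow and the days did not overlap, with means of 0.930 ± 0.0328 on Day21 and 0.426 ± 0.0766 on Day0. This ratio was singled out after its values were seen, so it is given without a test. Of the summed FPKM of the 3 GLI genes, GLI3 took 46.6 ± 1.31% on Day21 and 28.6 ± 3.17% on Day0, and GLI2 took 50.1 ± 0.689% on Day21 and 67.7 ± 5.03% on Day0. GLI1 took 3.35 ± 1.25% on Day21 and 3.71 ± 1.88% on Day0. The ratio of GLI1 to GLI3 was 0.0724 ± 0.0288 on Day21 and 0.126 ± 0.0533 on Day0, and that of GLI1 to GLI2 was 0.0670 ± 0.0250 on Day21 and 0.0563 ± 0.0315 on Day0.

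**Figure D2:**
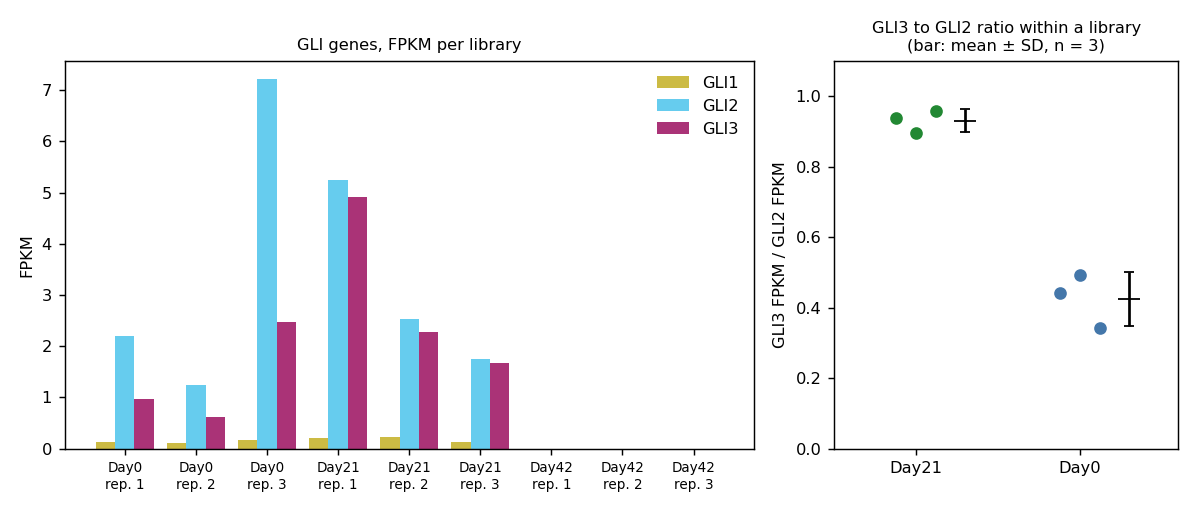
FPKM of GLI1, GLI2 and GLI3 in each of the 9 libraries as bars from 0 in the left panel, and the ratio of GLI3 FPKM to GLI2 FPKM within each library in the right panel, with bars of mean ± SD (n = 3). The GLI genes are at or near 0 in all Day42 libraries, and the ratio is 0.930 ± 0.0328 on Day21 and 0.426 ± 0.0766 on Day0, with no overlap.

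In the comparison of Day21 with Day0, 1.32% of tested genes were called higher on Day21 by edgeR and 2.5% were called in either direction, and 0 of the 9 genes were. At an unadjusted p under 0.05, PTCH1 alone was higher, where 8.02% of tested genes were. DESeq2 gave no adjusted p for SMO and HHIP and called 1 of the other 7 higher (PTCH1), against 7.43% of the genes with an adjusted p. The fit of the 2 days alone called 3 higher (PTCH1, HHIP and BOC), against 12.8%. Voom with sample quality weights called 5 higher (PTCH1, HHIP, BOC, SUFU and GLI3), against 18.5%. The libraries of the 2 days did not overlap, with Day21 higher, for 4 of the 9 genes and 24.7% of tested genes in TMM-scaled CPM, and for 3 (without SUFU) and 25.0% in FPKM. The median log2 difference was 1.07 over the 9 genes and 0.03 over all tested genes.

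On Day42 relative to Day21, 6 of the 9 genes were called lower (PTCH1, SUFU, GLI1, GLI2, GLI3 and GAS1), against 19.7% of tested genes. All of these except PTCH1 passed the count filter through Day0 and Day21 libraries only. The counts of calls on Day42 therefore describe the data and support no direction. In TMM-scaled CPM every Day42 library was below every Day21 library for all 9 genes and for 34.7% of tested genes, and in FPKM for 8 (without SMO) and 27.3%. Relative to Day0, 5 of the 9 were called lower (the same without PTCH1), against 23.4%, and 6 of the 9 had no overlap with Day42 lower in TMM-scaled CPM, against 34.1%, or 5 (without PTCH1) in FPKM, against 27.3%. Any 2 of the 3 comparisons share the libraries of 1 day. The median log2 change over the 9 genes was -5.25 relative to Day21 and -3.88 relative to Day0, or -3.06 and -1.52 with genes at the limit set to their bound. Over all tested genes the median without bounds was -0.54 and -0.57, and none with bounds was computed.

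**Figure D3:**
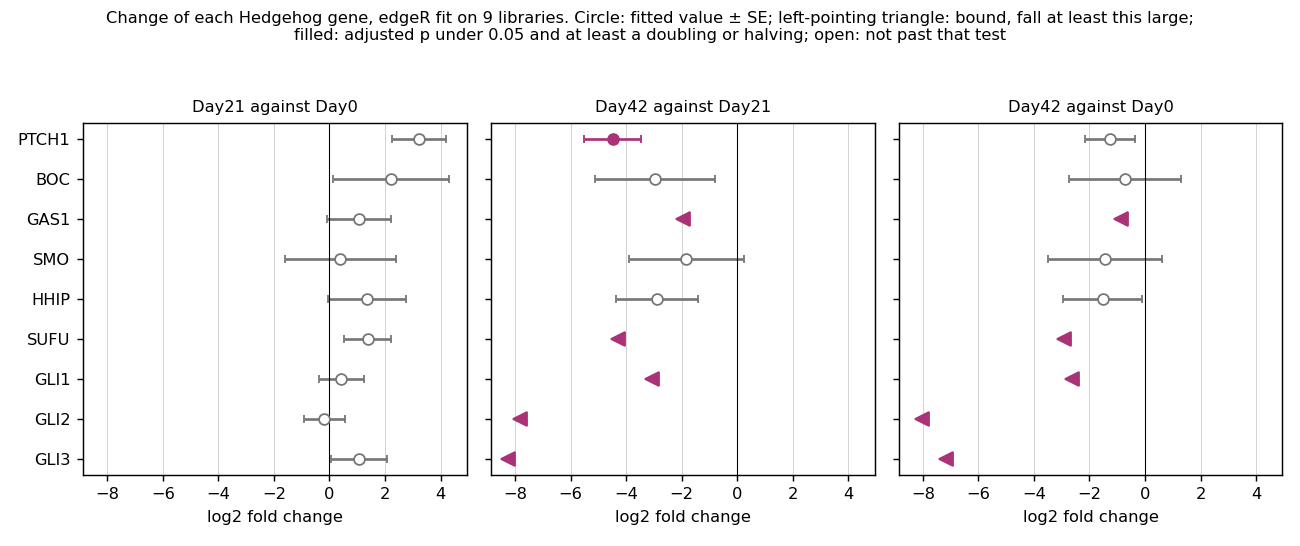
Log2 fold change of each gene in each of the 3 comparisons, later day over earlier day, with bars of 1 SE and filled marks for called changes; triangles show lower bounds on the fold for genes at or under the limit on Day42. PTCH1 has the largest of the 9 differences between Day21 and Day0 (3.22 ± 0.96) without being called, and 6 genes are called lower on Day42 than on Day21.

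Sums of cell type markers differed between the days, in directions that varied between the types. Of all tested genes, 1.32% were called higher on Day21 than on Day0, and 8.02% were higher at an unadjusted p under 0.05. On Day42, 19.7% were called lower than on Day21 and 23.4% lower than on Day0. The summed level of 5 markers of dividing cells was 826 to 1305 CPM at Day0, 867 to 930 at Day21 and 0.178 to 19.3 at Day42, and 4 of the 5 were called lower on Day42 than on either earlier day. The 7 neural progenitor markers summed to 277 to 363 CPM at Day0, 1282 to 1436 at Day21 and 292 to 450 at Day42. In replicate 3, which had the highest Day42 sum, only 1 of the 7 had more than 12 counts, against 5 in replicates 1 and 2. Of the 7, 2 were called higher on Day21 than on Day0 and 4 lower on Day42 than on Day21. The 8 markers of mesenchyme and fibroblasts summed to 33.7 to 37.9 CPM at Day0, 590 to 641 at Day21 and 125 to 157 at Day42, with 2 of 8 called higher on Day21 than on Day0. All 8 had more than 12 counts in each Day21 library. The 6 astroglia markers summed to 123 to 185 CPM at Day0, 68.1 to 69.2 at Day21 and 13.9 to 49.99 at Day42, with 3 of 6 called lower on Day42 than on Day21. The 6 markers of the oligodendrocyte lineage summed to 23.3 to 32.5 CPM at Day0, 28.2 to 39.7 at Day21 and 6.73 to 14.0 at Day42, with 2 of 5 tested called lower on Day42 than on Day21. The 5 neural crest markers summed to 7.42 to 12.1 CPM at Day0, 26.8 to 35.2 at Day21 and 5.71 to 13.8 at Day42, and of 3 tested none was called by edgeR between Day21 and either other day, though 2 were higher and 1 lower on Day21 than on Day0 and 1 was lower on Day42 than on Day21 at an unadjusted p under 0.05. As for the labels, 6 pluripotency markers summed to 1509 to 2345 CPM at Day0, 53.4 to 88.3 at Day21 and 0.0589 to 0.142 at Day42. Neuronal markers summed to 3679 to 4694 CPM in the Day42 libraries, against 523 to 858 CPM in the Day21 libraries. Markers of serotonin neurons summed to 1117 to 1348 CPM in the Day42 libraries and at most 8.46 CPM in the others, while the serotonin transporter SLC6A4 was at 0 in all Day42 libraries and LMX1B was at 0 in replicate 3. The part of this cell makeup in the levels of the Hedgehog genes was not tested.

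Values at 0 were common on Day42. GLI1, GLI2 and GAS1 had 0 counts in all 3 Day42 libraries, which held for 17.0% of tested genes, and for 15.2% of the 10599 tested genes whose Day21 mean FPKM lay in the range of the 9 genes. With GLI3 and SUFU, 5 of the 9 had 12 counts or fewer in all 3 libraries, against 21.8% of tested genes and 19.8% within that range. The pattern of SMO, HHIP and BOC, with 100 counts or more in 1 Day42 library and 12 or fewer in another, was frequent as well. Among tested genes with 100 counts or more in some Day42 library, 49.6% showed it, and 60.9% in the same range of level, compared with 1.11% on Day21 and 1.86% on Day0 in that range. The Day42 library with 100 counts or more was replicate 1 for SMO and HHIP, and replicate 2 for BOC.

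The order of levels in FPKM, which is comparable between genes, began with GLI2 on both early days. At Day0, GLI2 (3.55 ± 3.21 FPKM) was followed by GLI3 (1.35 ± 0.985), SMO, HHIP, BOC (0.146 ± 0.0104), GLI1, SUFU, GAS1 and PTCH1 (0.0580 ± 0.00915). Neighbours in this order overlapped in their libraries, apart from GLI3 with SMO and HHIP with BOC. At Day21, GLI2 (3.18 ± 1.83 FPKM) and GLI3 (2.96 ± 1.72) led, followed by BOC (0.728 ± 0.259), HHIP, PTCH1 (0.587 ± 0.370), SMO, SUFU, GLI1 and GAS1. Here GLI3 with BOC and SMO with SUFU did not overlap. PTCH1 was thus the lowest of the 9 on Day0 and in the middle on Day21. On Day42, SMO, HHIP, BOC and PTCH1 led, the first 3 through 1 library each, and the GLI genes stood last with GAS1. Against all tested genes, the mean FPKM of GLI2 exceeded that of 75.2% on Day0 and 74.0% on Day21, while that of PTCH1 exceeded 14.1% on Day0 and 46.5% on Day21.

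The libraries of a day moved together for several of the genes. In TMM-scaled CPM, Day0 replicate 3 was the highest Day0 library for 7 of the 9 genes (all but HHIP and BOC) and for 39.1% of tested genes. Day21 replicate 1 was the highest Day21 library for 5 (PTCH1, GLI2, GLI3, BOC and GAS1) and for 39.7% of tested genes. For PTCH1, GLI2, GLI3 and GAS1 both held, as for 24.7% of tested genes. Among pairs of the 9, SMO and HHIP had the most alike profile over the 9 libraries, with a root mean square difference of 0.600 in centred log2 CPM, followed by GLI2 and GLI3 at 0.670. Over 5632 other genes, the nearest profile was ZFP36L1 for PTCH1 (0.517), BIK for SMO (0.685) and HHIP (0.948), TMEM187 for BOC (0.502) and TUBA1C for GAS1 (0.849). It was MRPL23 for SUFU (0.703), IFITM3 for GLI1 (0.496), HJURP for GLI2 (0.397) and REEP4 for GLI3 (0.483). Next came CST3 for PTCH1 (0.759), ALG1L for SMO (0.882), MRPL23 for HHIP (1.15), CD70 for BOC (0.634) and MT-CO3 for GAS1 (0.874), then ID3 for SUFU (0.735), RPL36A for GLI1 (0.603) and GTSE1 for both GLI2 (0.411) and GLI3 (0.537). These distances describe libraries that share their day and depth, and IFITM3 and RPL36A have near-identical copies, so their counts are uncertain.

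The rest of the pathway was read through 6 lists. Of 7 tested genes of ligands and their release, 1 was called higher on Day21 than on Day0 and 2 on Day42 than on Day0, with none lower, against 1.32% and 8.82% of tested genes called higher. SHH, the ligand secreted by the floor plate and notochord, had 0 counts in the 3 Day0 libraries, 1332, 2296 and 3381 in the Day21 libraries, and 186, 1536 and 0 in the Day42 libraries. All Day21 libraries were high and Day42 replicate 3 had none. On Day21 SHH was at least 179-fold higher than on Day0 and was not called (edgeR adjusted p = 0.0764). On Day42 SHH was called at least 30.0-fold higher than on Day0 (edgeR adjusted p = 0.0358), a call that passed in 6 of 17 alternatives. SHH and HHAT, another gene of this list, passed the count filter through Day21 and Day42 libraries only. The calls counted for this list and the tests of SHH therefore describe the data and support no direction. Without Day42 replicate 2 the bound was 5.24-fold. The call was lost without any 1 of the Day0 or Day21 libraries (edgeR adjusted p up to 0.0824) and without Day42 replicate 2 (edgeR adjusted p = 0.0575). SCUBE3, a secreted protein that helps to release the ligand, was 3.75 ± 0.70 log2 units higher on Day21 than on Day0 (edgeR adjusted p = 0.0325), kept in 8 of 17 alternatives and lost without any 1 of the Day0 or Day21 libraries (edgeR adjusted p up to 0.145). It was 4.14 ± 0.72 higher at Day42 than at Day0 (edgeR adjusted p = 0.00339). Of 5 other receptors and coreceptors, only LRP2 was called lower on Day42 than on Day21, against 19.7% of tested genes. LRP2, a large endocytic receptor of SHH, fell by 6.06 ± 1.72 log2 units there (edgeR adjusted p = 0.0320), with 9 of 17 alternatives keeping the call. It was lost without Day0 replicate 1 or 3, any 1 Day21 library or Day42 replicate 2 (edgeR adjusted p up to 0.0752), and the change was -8.08 without Day42 replicate 1. LRP2 counts were 116, 24 and 0 on Day42, against 2786, 2026 and 2249 on Day21. Its Day21 level was 7.91 ± 1.87 log2 units above Day0 and not called (edgeR adjusted p = 0.0522).

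Genes that process or degrade GLI proteins were called only upwards on Day42. Of 15, all tested, 4 rose on Day42 relative to Day21, against 6.52% of tested genes, and 5 relative to Day0, against 8.82%, with none lower. Their median log2 change was 1.19 relative to Day21 and 1.09 relative to Day0. PRKACB, a catalytic subunit of protein kinase A, which marks GLI proteins for processing, stood at 104.7 ± 33.1 CPM on Day42 and 5.03 ± 1.54 CPM on Day21, a rise of 4.38 ± 0.45 log2 units (edgeR adjusted p = 0.000696). GNAS, the G protein alpha subunit that activates adenylyl cyclase upstream of that kinase, rose by 2.59 ± 0.21 log2 units relative to Day21 (edgeR adjusted p = 0.000303). CUL3, a ubiquitin ligase scaffold, rose by 2.44 ± 0.54 relative to Day21 (edgeR adjusted p = 0.0117), and by 1.67 without Day42 replicate 3, and lost the call without Day21 replicate 2 (edgeR adjusted p = 0.0516). GPR161, a ciliary receptor that raises cAMP, rose by 1.67 ± 0.44 relative to Day0 (edgeR adjusted p = 0.0208), kept in 11 of 17 alternatives and lost without any 1 Day0 library (edgeR adjusted p up to 0.0768). The calls for PRKACB and GNAS held in all 17. PRKAR1A, a regulatory subunit of protein kinase A, rose by 1.32 ± 0.28 log2 units relative to Day21 (edgeR adjusted p = 0.00906). Relative to Day0 it rose by 1.51 ± 0.28 (edgeR adjusted p = 0.00425). These genes also serve functions outside the pathway.

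Among 18 genes of the primary cilium and SMO trafficking, 1 rose and 2 fell on Day42 relative to Day21, and 2 rose and 2 fell relative to Day0, against 6.52% and 8.82% of tested genes called higher and 19.7% and 23.4% called lower. EVC and EVC2 form the ciliary complex that passes the signal on from SMO. EVC had 190, 263 and 568 counts in the Day0 libraries, 936, 477 and 395 in the Day21 libraries, and 0 in each Day42 library. EVC and EVC2 passed the count filter through Day0 and Day21 libraries only, so their tests on Day42 describe the data and support no direction. EVC was at least 67.3-fold lower on Day42 than Day21 (edgeR adjusted p = 0.00146) and at least 41.8-fold lower than Day0 (edgeR adjusted p = 0.00121), and both calls held in all 15 alternatives that tested it. EVC2, also at 0 on Day42, was at least 2.25-fold lower than on Day21 (edgeR adjusted p = 0.00786) and at least 6.67-fold lower than on Day0 (edgeR adjusted p = 0.00397). The bounds were 1.49-fold without Day21 replicate 2 and 4.08-fold without Day0 replicate 3, and voom lost both calls (adjusted p = 0.116 and 0.0619). In contrast KIF3A, a motor subunit of ciliary transport, rose by 2.19 ± 0.29 log2 units relative to Day21 (edgeR adjusted p = 0.00179). IFT80, a ciliary transport protein, was 3.37 ± 0.90 log2 units higher at Day42 than at Day0 (edgeR adjusted p = 0.0215), and 2.27 without Day42 replicate 3, with 9 of 15 alternatives keeping the call and none that left out a Day0 library (edgeR adjusted p up to 0.0751). Voom lost it as well (adjusted p = 0.0711).

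Genes of neural tube regions that Hedgehog induces or limits were read as 2 lists. Of 9 tested genes that it induces ventrally, 1 was called higher on Day21 than on Day0 over all libraries, 7 were higher at an unadjusted p under 0.05, and 7 were called higher with the 2 days alone. Of 6 tested genes of dorsal or intermediate progenitors, these counts were 0, 4 and 6, and of all tested genes the shares were 1.32%, 8.02% and 12.8%. NKX6-1, FOXF2, PAX3 and MSX1 passed the count filter through Day21 libraries only, the day on which they are high, and FOXA1, NKX2-2 and IRX5 through Day21 and Day42 only, so the counts of both lists and the tests of these genes describe the data and support no direction of the lists. NKX6-1, a ventral progenitor factor, had 0 counts in all Day0 libraries, 345, 203 and 290 in the Day21 libraries, and 0 in all Day42 libraries. The Day21 level was at least 20.5-fold higher than that of Day0 (edgeR adjusted p = 0.0485), kept in 7 of 15 alternatives and lost without any 1 of the Day0 or Day21 libraries (edgeR adjusted p up to 0.154). The Day42 level was at least 31.9-fold lower than that of Day21 (edgeR adjusted p = 0.00819). NKX2-2, of the progenitors that form serotonin neurons, had 0 counts in the Day0 libraries, 662, 510 and 480 in the Day21 libraries, and 196, 723 and 0 in the Day42 libraries. Its level on Day42 was called at least 16.2-fold higher than on Day0 (edgeR adjusted p = 0.0343), kept in 5 of 17 alternatives and, of those that left out a library, only in that without Day42 replicate 3 (edgeR adjusted p otherwise up to 0.0794). Without Day42 replicate 2 the bound was 5.52-fold. On Day21 NKX2-2 was at least 40.4-fold higher than on Day0, which was not called. On Day42 relative to Day21, 4 of 9 ventral genes and 3 of 6 dorsal or intermediate genes were called lower, against 19.7% of tested genes.

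Among the ventral genes called lower on Day42, FOXF2 was at 0 counts and at least 2.90-fold lower than on Day21 (edgeR adjusted p = 0.0156), a call lost without Day21 replicate 1 or 2 (edgeR adjusted p up to 0.0530) and with voom (adjusted p = 0.0695). MYCN, which drives progenitor division, fell by 4.81 ± 1.43 log2 units relative to Day21 (edgeR adjusted p = 0.0382, kept in 8 of 17 alternatives) and fell by 6.01 ± 1.51 relative to Day0 (edgeR adjusted p = 0.0165). Without Day42 replicate 2 the log2 changes of MYCN were -7.45 and -8.66. Only 1 Day42 library of MYCN was over the count filter, so the size of these changes is uncertain. The call relative to Day21 was lost without Day0 replicate 1 or 2, any 1 Day21 library or Day42 replicate 1 (edgeR adjusted p up to 0.0978), and that relative to Day0 without Day0 replicate 3 (edgeR adjusted p = 0.0508). Voom lost both (adjusted p = 0.115 and 0.0659). Of the others, MSX1 was at least 26.0-fold lower than at Day21 (edgeR adjusted p = 0.0171), PAX3 at least 6.07-fold lower (edgeR adjusted p = 0.0229) and PAX6 at least 62.9-fold lower (edgeR adjusted p = 0.00587). The call of PAX3 was lost without any 1 Day21 library (edgeR adjusted p up to 0.0572) and with voom (adjusted p = 0.0844). PAX6 had counts of 0, 0 and 4 on Day42, against 609, 516 and 512 on Day21. It passed the count filter through Day0 and Day21 libraries only, so its test describes the data as well.

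**Figure D4:**
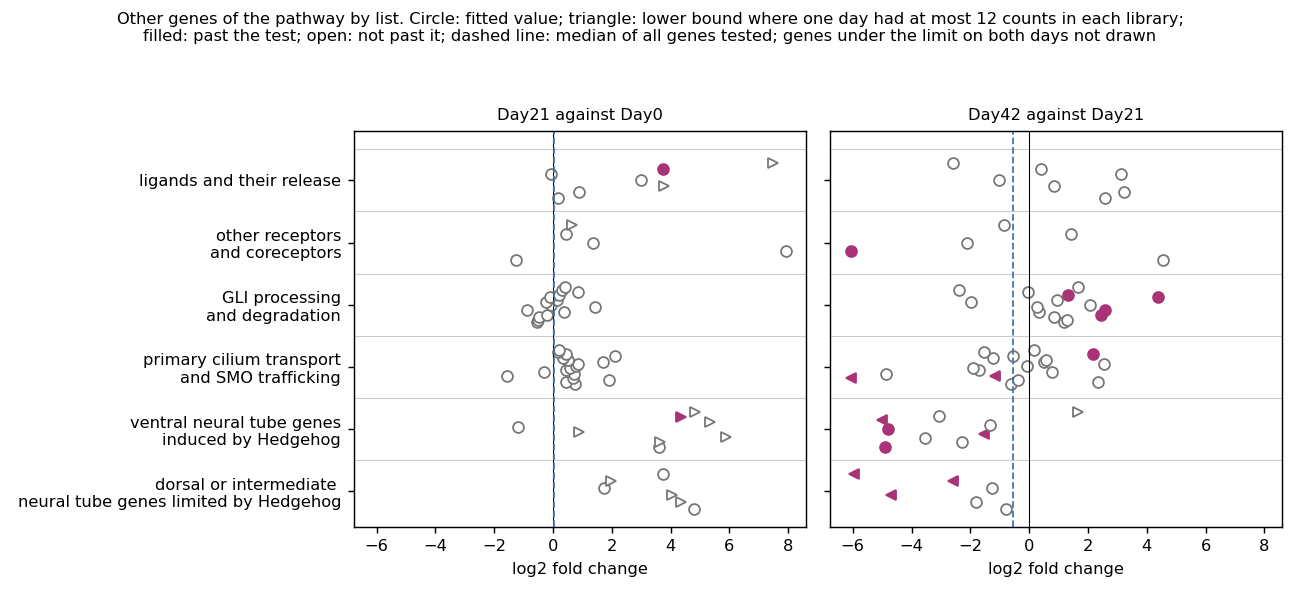
Log2 fold change of tested genes in the 6 pathway lists, for Day21 against Day0 and Day42 against Day21; filled marks are called, triangles are genes drawn at their lower bound, the dashed line is the median of all tested genes, and genes under the limit on both days are not drawn. In the Day42 panel 4 genes that process or degrade GLI proteins are called higher and none lower, and 4 ventral and 3 dorsal or intermediate genes are called lower.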

How the data were processed

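Total RNA of 9 libraries (3 per day) was sequenced from about 10 ng with a NEBNext single-cell/low-input kit, per the labels' protocols. The tools cutadapt 1.9 and FastQC and the build GRCh38 are named in the submitters' processing notes. For the aligner, counter, strand setting and annotation, the sources used here name none. The table deposited by the authors holds raw counts per gene (whole numbers, per the file headers) and FPKM values that the authors computed from these libraries. Each column was assigned by its name, and 0 stayed without a library.

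Genes were filtered with filterByExpr and scaled by TMM, and edgeR 4.0.16 (R 4.3.3) fitted 1 mean for each day over all 9 libraries. P-values were adjusted over the 20156 tested genes. Lower bounds on folds use 12 counts per library. Alternatives were DESeq2 1.42.0, limma 3.58.1 (voom with quality weights, and log2(FPKM + 1) or log2(FPKM + 0.1) for genes with FPKM of at least 1 in 3 libraries), another scaling, no filter, the 2 days alone, a replicate block and each library left out. The edgeR, DESeq2 and voom fits were tested on counts simulated for Day21 against Day0, with dispersions capped. Preparation used Python 3.11.15, pandas 2.3.3 and numpy 2.4.6, with figures in matplotlib 3.10.9. The genes, the lists and the tests were chosen with earlier results of these data known. From each list, up to 4 called genes with the largest change were named, and PRKAR1A was added to them. The genes with the nearest profiles (2 for each of the 9) were sought among unique gene symbols, with clone and LINC names left out. These candidates averaged 5 FPKM or more on some day.

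Because strand is not given, genes that overlap another model are uncertain. SUFU overlaps RNU6-43P on its own strand, and all of the 9 genes except GAS1 overlap a model on the other strand, among them ARHGAP9 for GLI1, CFAP44 for BOC and HHIP-AS1 for HHIP. CUL3, IFT80, PRKACB, PRKAR1A and GNAS overlap a model on their own strand. EVC, FOXF2, KIF3A, MYCN, NKX2-2, PAX3, PAX6 and SCUBE3 overlap one on the other strand alone. Of the 10 ventral genes listed, 1 was not analysed here.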

Additional observations from a re-analysis of the deposited data

How the results depend on the processing

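The number of the 9 genes called on Day21 against Day0 was 0 in the fit to all libraries, 1 with DESeq2, 5 with voom and sample quality weights, 3 with the 2 days alone, and 0 to 1 when a library was left out, the 1 being PTCH1 without Day42 replicate 3. On Day42 against Day21 it was 6, with 6 to 8 when a library was left out. It was 2 on log2(FPKM + 1) and 2 on log2(FPKM + 0.1), where only GLI2 and GLI3 passed the filter. On Day42 against Day0 it was 5, with 3 under voom with sample quality weights, 2 in each FPKM fit, 3 with the replicate block, and 5 to 7 when a library was left out. The log2 difference of GLI2 between Day21 and Day0 changed sign to 0.0103 with voom, 0.0166 on log2(FPKM + 1), 0.0721 on log2(FPKM + 0.1) and 0.0754 with the replicate block. It ranged from -0.645 without Day21 replicate 1 to 0.693 without Day0 replicate 3, and it was 0.0711 without Day21 replicate 3. The cause was not tested. Of 411 log2 changes of the 9 genes under alternatives, 377 kept direction and side of the threshold, 10 lost a call, 18 gained one and 6 changed sign. Of 452 for the named pathway genes other than PRKAR1A, 97 lost the call and 0 changed sign.

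Deviations of libraries with the same replicate number correlated at -0.225 to 0.0266, and those with other numbers at -0.182 to 0.301. Libraries of the same number were thus no more alike by this measure, and whether they share an origin was not tested. With the block, 4 of the 9 genes were called on Day42 against Day21, PTCH1 and GAS1 being lost (edgeR adjusted p = 0.0527 and 0.0772), and on Day42 against Day0 SUFU and GAS1 were lost (edgeR adjusted p = 0.0736 and 0.0812). Changes within the limit of 12 counts were not detectable at this depth.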
